A study of Homo sapiens with 9 samples.

Results

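The genes described here are 38 genes of actin-based contraction and focal adhesion, read in RNA sequencing of IMR90 cells, which are human fetal lung fibroblasts. They were taken as a list of gene symbols, matched by gene identifier to the count tables, which hold 64253 identifiers. Of these 38, 37 had enough counts to be tested among 16561 genes. MYH11, the smooth muscle myosin heavy chain, was left out of the tests with a mean of 0.29 CPM (counts scaled for the depth of each library) in control, 0.34 in shRRM2 and 0.33 in shRRM2/shp16. The study compared control cells with cells carrying a hairpin against RRM2, a subunit of the enzyme that makes deoxynucleotides, and with cells carrying that hairpin and one against p16, a product of CDKN2A that inhibits the cell cycle. The submitters describe the RRM2 hairpin as inducing senescence and the added p16 hairpin as a bypass of it.

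There were 3 libraries, lettered a to c, in each of 3 groups. The control group carried the lentiviral vector pLKO.1, called an empty vector in the sample labels and a GFP vector in the treatment protocol. The shRRM2 group carried pLKO.1-shRRM2, and the shRRM2/shp16 group carried pLKO.1-shRRM2 and pLKO.1-shp16. All groups grew in 2% oxygen, were used at population doubling 30, and by protocol received a second virus 24 hours after the first, then 3 ug/mL puromycin for 7 days. No group with the p16 hairpin alone was analysed here. The labels do not say that the 3 libraries of a group came from separate cultures, so the p-values measure the spread between libraries, which may be technical. That spread was small, with a common coefficient of variation beyond counting noise of 0.027 in edgeR.

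In contractile cells, myosin II pulls on actin filaments that are bundled by alpha-actinin, wrapped by tropomyosin, and decorated by calponins, transgelin and caldesmon. The filaments end in focal adhesions, plaques in which talin and vinculin link actin to integrins and thereby to the matrix. Many of these genes are classical targets of SRF, a transcription factor that binds the CArG box together with the coactivator myocardin (MYOCD) or the myocardin-related factors MRTFA and MRTFB. Fibroblasts express part of this programme in culture, and myofibroblasts are defined by its actin, ACTA2.

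Total gene counts ran from 15770895 in shRRM2 a to 24873291 in control a. RRM2 was at 481 to 491 CPM in control, 59.98 to 63.24 in shRRM2 and 175 to 181 in shRRM2/shp16, so both hairpin groups were below control and they differed from each other. CDKN2A, counted as 1 gene for all its transcripts, was at 5.95 to 6.15 CPM in control, 5.97 to 6.79 in shRRM2 and 3.93 to 4.57 in shRRM2/shp16. The share of uniquely aligned reads that the counting assigned to no annotated feature was 17.7% to 18.9% in control. It was 27.7% to 28.8% in shRRM2 and 23.5% to 24.4% in shRRM2/shp16. The counts do not say whether such reads lie between genes or inside them, and their part in the results was not tested. All 12 fibroblast markers were expressed, with a summed level of 29550 to 30480 CPM in control, 28290 to 29120 in shRRM2 and 25500 to 26080 in shRRM2/shp16. Of 14 striated muscle markers, 7 were at 0 in every library, among them MYOD1, MYOG and MYH7.

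To show the element named above, the promoters of these genes were searched for CArG boxes, on both strands, in the 250 bases before a RefSeq start (GRCh38.p14). A single start was kept for each gene, and other starts were not searched. The start kept for MYLK lies inside the gene, which runs from 123610049 to 123884331 on the minus strand of chromosome 3. It is much nearer to the 3′ end of the gene than to its 5′ end. Other kept starts, among them those of CALD1, TPM1, TPM3 and TNS1, also lie inside their genes. Entries were found for 33 genes, and the 5 without one were TAGLN, MYL9, MYH11, DES and MYOCD. A CArG box stood in 6 of the 33 (18.2%), against 312 of 27305 promoters of all genes (1.14%). The promoters of the 33 had a median GC content of 71.6%, against 58.0% for all. The 6 are shown because they carry the box, each written 5′ to 3′ along the gene's strand with the boxes in capitals, at ACTG2 chr2:73892878-73892964 (plus strand), CNN2 chr19:1026499-1026548 (plus), FLNA chrX:154374699-154374748 (minus), MYLK chr3:123620613-123620662 (minus), SRF chr6:43171219-43171268 (plus) and TPM4 chr19:16067345-16067394 (plus).
ACTG2: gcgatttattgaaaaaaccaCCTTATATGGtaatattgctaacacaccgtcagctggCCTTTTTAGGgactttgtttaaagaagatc
CNN2: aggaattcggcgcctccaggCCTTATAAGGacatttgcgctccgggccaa
FLNA: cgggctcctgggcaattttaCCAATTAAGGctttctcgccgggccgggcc
MYLK: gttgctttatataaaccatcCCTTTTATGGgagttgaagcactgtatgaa
SRF: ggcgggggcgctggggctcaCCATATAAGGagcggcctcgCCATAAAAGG
TPM4: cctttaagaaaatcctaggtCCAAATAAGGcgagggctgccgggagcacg

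ACTG2 and SRF held 2 boxes each, and the box nearest to the start lay 10 bases before it in SRF and 173 bases before it in TPM4. A match describes these letters and is not a measured binding site. The sequence CATTCC, the core recognised by TEAD factors, stood in 7 of the 33 (11.9% of all promoters), and TATAAA stood in 2 (11.1% of all).

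The 38 genes together gave 32931 ± 564 CPM (SD, n = 3) in control, 29140 ± 411 in shRRM2 and 18316 ± 176 in shRRM2/shp16. As a share of all gene counts they held 3.15% to 3.22%, 2.86% to 2.92% and 1.89% to 1.92%. The sum was thus lower in every shRRM2/shp16 library than in any other, and somewhat lower in shRRM2 than in control. Because these are bulk samples, fewer cells expressing a gene and less RNA per cell cannot be told apart.

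Against control, shRRM2 moved these genes both ways. At an adjusted p under 0.05 in edgeR's quasi-likelihood test, 13 of 37 rose (29% of all genes tested rose), 18 fell (31.8% of all fell) and 6 did not pass, so the share called was 31 of 37 beside 60.9% of all genes. The groups did not overlap in 33 of the 37, against 63.6% of all genes. The median log2 fold change was -0.08, against 0.00 for all genes tested, and the extremes were DES at -0.79 and SYNPO2 at 0.74, so no gene of the list reached a 2-fold change (6.81% of all genes were higher and 3.26% lower by at least that). Without a filter on low counts 8 rose in place of 13 and 23 fell in place of 18. TAGLN, CNN1, CNN3, LMOD1, MYH10, CSRP2, VCL, TNS1 and PXN lost the call under 1 or more of the limma settings. The 6 that did not pass were MYL9, ACTN4, PDLIM7, CSRP1, TLN1 and SRF, whose 95% intervals all lay between -0.17 and 0.09. Of these, MYL9 (adjusted p = 0.0339), ACTN4 (0.00242), PDLIM7 (0.00195), TLN1 (0.0029) and SRF (0.0102) passed as lower without the low-count filter, and CSRP1 passed as higher in limma on the deposited values (0.0152). PDLIM7, at -0.07, also passed without control b (-0.09, adjusted p = 0.0191), without control c (-0.09, adjusted p = 0.0389) or without shRRM2 b (-0.09, adjusted p = 0.020).

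With the p16 hairpin added, nearly the whole list fell. Against shRRM2, 36 of 37 genes were lower in shRRM2/shp16 (29.1% of all genes were lower) and MYOCD was higher (31.9% of all were higher), so all 37 passed beside 61.1% of all genes. A fall of at least 2-fold was called for 13 (6.58% of all), and MYOCD rose at least 2-fold (5.19% of all). On the log2 scale the median was -0.81, against 0.01 for all genes tested, and the groups did not overlap for any of the 37, against 64.7% of all genes.

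Against control, 35 genes were lower in shRRM2/shp16 (32.4% of all) and 2 were higher (30% of all), and all 37 passed beside 62.4% of all. Of them 13 were lower by at least 2-fold (6% of all), and no gene was higher by as much (6.59% of all). The 2 that rose were MYOCD and LPP. LPP, at 0.08 ± 0.03 (SE), did not pass without control a (0.05, adjusted p = 0.109) or without shRRM2/shp16 b (0.07, adjusted p = 0.0821). The median was -0.81 here too, and the groups did not overlap for any of the 37, against 66.2% of all genes. The 3 comparisons share libraries pairwise, so their values are given side by side and are not independent of each other.

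**Figure D1:**
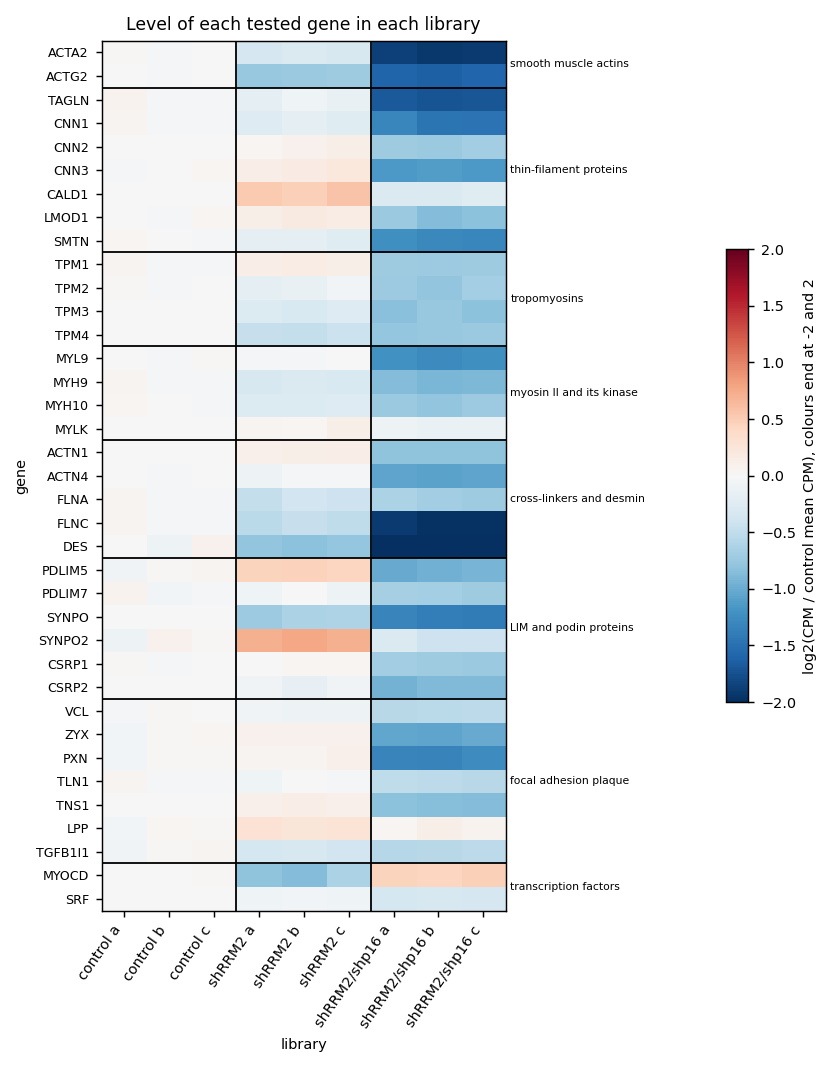
Level of each tested gene (vertical axis, grouped by role) in each of the 9 libraries (horizontal axis), as log2 of its CPM over the control mean. Most genes are pale in the 3 shRRM2 libraries and blue in the 3 shRRM2/shp16 libraries, MYOCD is blue in shRRM2 and red in shRRM2/shp16, and DES in shRRM2/shp16 lies beyond the colour scale, which ends at -2 and 2.

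**Figure D2:**
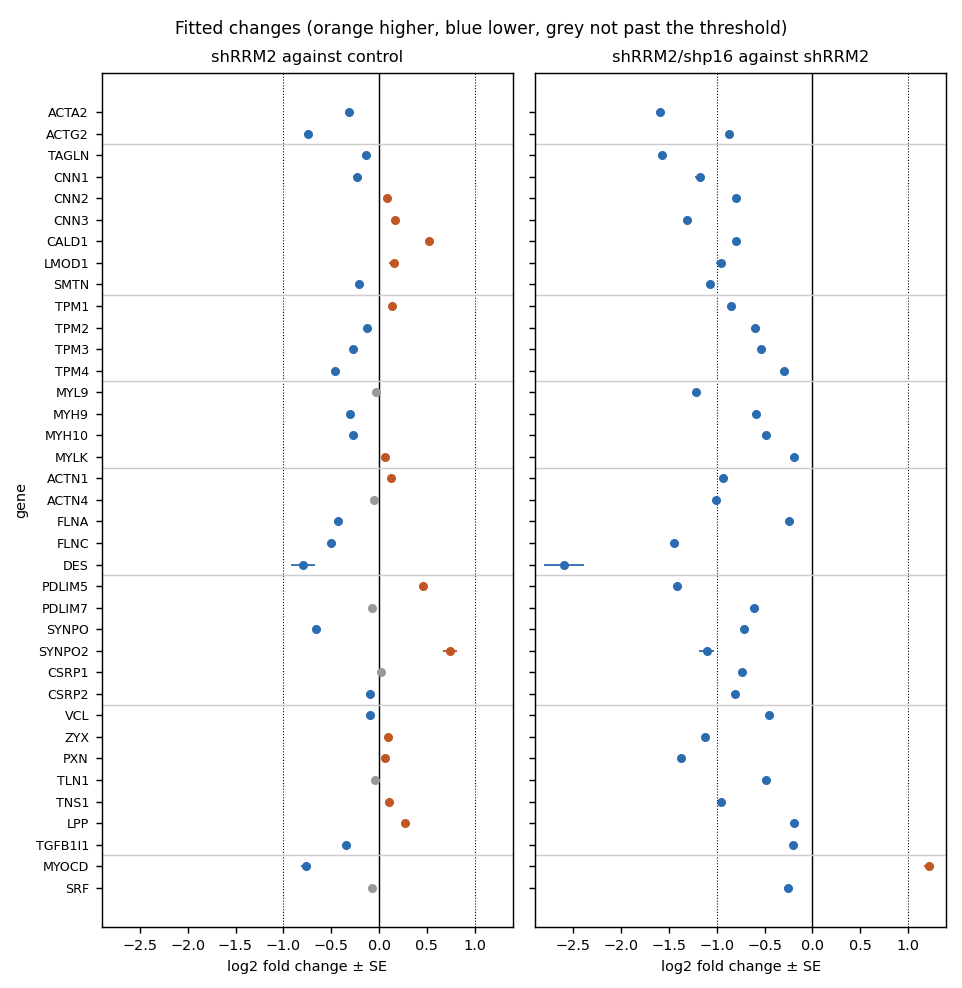
Fitted log2 fold change ± SE of each tested gene (vertical axis) in shRRM2 against control (left) and shRRM2/shp16 against shRRM2 (right), with dotted lines at 2-fold. The left points lie on both sides of 0 between -0.79 and 0.74, and the right points lie below 0 except MYOCD.

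The smooth muscle actins fell in both steps. ACTA2, the alpha actin of smooth muscle and myofibroblasts (GENCODE v29, GRCh38, chromosome 10, 88935074 to 88991339, minus strand), was at 828, 802 and 826 CPM in control a, b and c, at 646, 669 and 657 in shRRM2, and at 223, 215 and 217 in shRRM2/shp16. No group overlapped another. Its log2 fold change was -0.32 ± 0.03 (SE) in shRRM2 against control (edgeR adjusted p = 3.3e-14) and -1.59 ± 0.03 in shRRM2/shp16 against shRRM2 (adjusted p = 1.4e-38), which left 26.7% of the control level. ACTG2, the gamma actin of enteric smooth muscle (chromosome 2, 73892314 to 73919865, plus strand), was at 746, 730 and 740 CPM in control, 435, 442 and 450 in shRRM2, and 243, 239 and 245 in shRRM2/shp16. The steps were closer in size for ACTG2, which carries 2 CArG boxes in the promoter shown above, at -0.74 ± 0.03 (adjusted p = 7.6e-27) and then -0.87 ± 0.03 (adjusted p = 7.7e-29). Against control it was lower by 3.05-fold in shRRM2/shp16. ACTA2 and ACTG2 encode near-identical proteins, so reads shared between them make each value uncertain, and 17.3% of the exonic bases of ACTA2 overlap ACTA2-AS1 and 12.8% overlap FAS, both on the opposite strand.

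Among the 7 thin-filament proteins, 4 rose and 3 fell in shRRM2, while all 7 fell in shRRM2/shp16 against shRRM2, by at least 2-fold for TAGLN, CNN1, CNN3 and SMTN. TAGLN (transgelin or SM22, an actin-binding protein and common marker of the contractile state) was at 1096, 1012 and 1008 CPM in control, 916, 975 and 939 in shRRM2, and 325, 314 and 316 in shRRM2/shp16. It fell by 0.14 ± 0.03 on the log2 scale in shRRM2 (edgeR adjusted p = 5.1e-05) and by 1.57 ± 0.03 with the p16 hairpin added (adjusted p = 4.2e-37), to 30.6% of control. The overlap of TAGLN with the opposite-strand gene PCSK7 covers 11.4% of its exonic bases. CNN1, the calponin of differentiated smooth muscle, was at 129, 123 and 122 CPM in control, 104, 110 and 106 in shRRM2, and 50.6, 45.3 and 44.8 in shRRM2/shp16, with no overlap between groups. Its changes were -0.23 ± 0.04 (adjusted p = 2.7e-06) and -1.18 ± 0.04 (adjusted p = 5.1e-26).

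CNN3, an acidic calponin found in many non-muscle cells, took the opposite course in the first step. It was at 375, 379 and 390 CPM in control, 417, 429 and 442 in shRRM2, and 172, 176 and 172 in shRRM2/shp16, a rise of 0.17 ± 0.03 (edgeR adjusted p = 1.3e-06) and then a fall of 1.31 ± 0.03 on the log2 scale (-1.31, adjusted p = 3e-34). SMTN, smoothelin, which binds actin filaments in contractile smooth muscle, was at 232, 224 and 218 CPM in control, 196, 198 and 190 in shRRM2, and 96.4, 91.5 and 90.9 in shRRM2/shp16. Both of its steps were downward, at -0.21 ± 0.03 (adjusted p = 5.1e-07) and -1.07 ± 0.04 (adjusted p = 3.4e-28). CALD1 (caldesmon, which restrains actomyosin) had the largest rise of the 7 in shRRM2, from 805 ± 5.73 to 1158 ± 35.7 CPM (SD, n = 3), before it dropped to 665 ± 13.4. LMOD1, which nucleates actin filaments, and CNN2 rose by 0.15 ± 0.05 (adjusted p = 0.0049) and 0.08 ± 0.03 (adjusted p = 0.0071) in shRRM2. The CNN2 call was lost without control c (0.07, adjusted p = 0.0509).

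The tropomyosins, coiled coils that lie along actin and set which proteins reach it, did not reach 2-fold in any comparison. In shRRM2, TPM1 rose and TPM2, TPM3 and TPM4 fell; in shRRM2/shp16 against shRRM2 all 4 fell, with log2 fold changes from -0.85 (TPM1) to -0.30 (TPM4). TPM4, the member with the most counts, was at 2050, 2061 and 2068 CPM in control, 1490, 1475 and 1532 in shRRM2, and 1208, 1218 and 1226 in shRRM2/shp16. For TPM4 the first step was the larger, at -0.46 ± 0.02 (edgeR adjusted p = 4.6e-21) beside -0.30 ± 0.02 (adjusted p = 6.4e-15). Against control the 4 genes were lower by similar amounts in shRRM2/shp16, from -0.81 to -0.71. Antisense and pseudogene copies bear on the family: TPM1-AS overlaps 16.1% of the exonic bases of TPM1, and the annotation names 8 pseudogenes of TPM3.

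Of the myosin II genes, MYL9, a regulatory light chain whose phosphorylation starts contraction, passed in the second step and not in the first. MYL9 was at 977, 973 and 1006 CPM in control, 955, 970 and 977 in shRRM2, and 426, 407 and 420 in shRRM2/shp16. Control and shRRM2 overlapped, and the change of -0.03 ± 0.03 did not pass (edgeR adjusted p = 0.37, 95% interval -0.09 to 0.04), whereas shRRM2/shp16 lay apart from both, at -1.21 ± 0.03 against shRRM2 (adjusted p = 3.4e-35). The non-muscle heavy chains MYH9 and MYH10 fell in each step, MYH9 from 3516 ± 134 CPM (SD, n = 3) to 2847 ± 41.0 and 1897 ± 29.8, and MYH10 from 310 ± 7.10 to 257 ± 1.25 and 184 ± 4.14. MYLK, the kinase that phosphorylates the light chain, changed little, at 764 ± 4.30, 801 ± 22.1 and 702 ± 9.36 CPM. Its rise of 0.07 in shRRM2 did not pass without control c (0.06, adjusted p = 0.0796) or without shRRM2 c (0.05, adjusted p = 0.090).

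Among the cross-linkers and the filament protein desmin was the largest fall of the list, that of DES. DES, the intermediate filament protein of muscle, was low throughout, at 7.38, 6.88 and 7.81 CPM in control, 4.25, 4.15 and 4.30 in shRRM2, and 0.739, 0.747 and 0.591 in shRRM2/shp16. Each group lay wholly below the one before it, with changes of -0.79 ± 0.13 (edgeR adjusted p = 9e-07) and -2.60 ± 0.21 (adjusted p = 1.2e-14), which left 9.53% of control. FLNC, the muscle filamin, was at 2359, 2204 and 2217 CPM in control, 1553, 1638 and 1592 in shRRM2, and 602, 573 and 577 in shRRM2/shp16. It fell by 0.50 ± 0.03 (-0.50, adjusted p = 1.5e-20) and then by 1.45 ± 0.03 (-1.45, adjusted p = 3.1e-37). FLNA, the filamin of most cells, has a CArG box in the promoter shown above and the highest CPM of the list, and it fell less, from 6183 ± 236 to 4597 ± 132 and 3870 ± 110 (SD, n = 3).

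The alpha-actinins, which bundle actin, were nearly level in the first step and fell in the second. ACTN4 was at 982, 957 and 979 CPM in control, 911, 954 and 955 in shRRM2, and 467, 464 and 469 in shRRM2/shp16. The first change, -0.05 ± 0.03, did not pass (edgeR adjusted p = 0.090), though the libraries did not overlap, and the second was -1.01 ± 0.03 (adjusted p = 2.4e-32). ACTN1 rose by 0.12 ± 0.02 (adjusted p = 1.7e-05) and then fell to 52.5% of shRRM2 (-0.93 ± 0.02, adjusted p = 2.2e-32). The opposite-strand gene CAPN12 overlaps 14.2% of the exonic bases of ACTN4.

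The LIM and podin proteins, scaffolds of Z-discs and stress fibres, split in shRRM2: PDLIM5 and SYNPO2 rose, SYNPO and CSRP2 fell, and PDLIM7 and CSRP1 did not pass. PDLIM5, which tethers kinases to alpha-actinin, was at 219, 234 and 239 CPM in control, 316, 319 and 313 in shRRM2, and 115, 119 and 122 in shRRM2/shp16. It rose by 0.45 ± 0.03 (edgeR adjusted p = 1.7e-16) and then fell by 1.41 ± 0.03 (-1.41, adjusted p = 1.3e-33), so the hairpin groups lay on opposite sides of control. SYNPO2 (myopodin) had the same course at a low level, with 12.3, 14.0 and 13.4 CPM in control, 21.8, 22.6 and 21.8 in shRRM2, and 10.9, 9.91 and 9.94 in shRRM2/shp16. Its changes were 0.74 ± 0.08 (adjusted p = 2.3e-11) and -1.11 ± 0.08 (adjusted p = 4.5e-16).

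SYNPO (synaptopodin, an actin-bundling protein) fell in both steps, in contrast to its relative SYNPO2. It was at 403, 406 and 405 CPM in control, 245, 262 and 263 in shRRM2, and 162, 155 and 153 in shRRM2/shp16, and the groups did not overlap. The changes of SYNPO were -0.66 ± 0.03 (edgeR adjusted p = 8.7e-23) and -0.71 ± 0.03 (adjusted p = 2.7e-23), giving a level 2.58-fold below control. CSRP1, CSRP2 and PDLIM7 fell in shRRM2/shp16 against shRRM2 with log2 fold changes from -0.81 to -0.62. CSRP2, down by 0.10 in shRRM2 (-0.10), did not pass there without shRRM2 b (-0.06, adjusted p = 0.171), in DESeq2 (adjusted p = 0.0697), with at least 10 counts in every library (0.0974) or with only the libraries compared (0.0508).

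In the focal adhesion plaque, 4 genes rose, 2 fell and TLN1 did not pass in shRRM2, and all 7 fell in shRRM2/shp16 against shRRM2, from -1.38 (PXN) to -0.19 (LPP). PXN, paxillin, a docking protein for adhesion kinases, was at 379, 398 and 400 CPM in control, 406, 407 and 420 in shRRM2, and 157, 155 and 164 in shRRM2/shp16. The first step of PXN was 0.07 ± 0.03 (edgeR adjusted p = 0.043) and did not pass without control a (0.04, adjusted p = 0.209), control c (0.07, adjusted p = 0.0598) or shRRM2 c (0.06, adjusted p = 0.114). The second, -1.38 ± 0.03 (adjusted p = 1.8e-34), took it to 38.5% of shRRM2. ZYX, zyxin, which is recruited to tensed stress fibres, was at 676, 715 and 727 CPM in control, 751, 751 and 750 in shRRM2, and 345, 341 and 351 in shRRM2/shp16. It moved by 0.09 ± 0.03 (adjusted p = 0.0046), which did not pass without control a (0.06, adjusted p = 0.0552), and then by -1.12 ± 0.03 (adjusted p = 6.9e-33). PXN-AS1 overlaps 12.3% of the exonic bases of PXN.

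The other plaque genes had smaller falls than PXN and ZYX in the second step. TLN1, talin, was at 1305 ± 44.6 CPM (SD, n = 3) in control, 1266 ± 35.2 in shRRM2 and 902 ± 13.1 in shRRM2/shp16. VCL, vinculin, was at 1104 ± 16.4, 1037 ± 16.1 and 759 ± 8.83 CPM. Their log2 fold changes in the second step were -0.49 and -0.45, while TNS1, tensin, which binds integrin tails, changed by -0.96. TGFB1I1 (HIC-5, a paxillin relative) fell in both steps, from 212 ± 9.04 to 166 ± 3.95 and 144 ± 2.45 CPM, and LPP, a zyxin relative, stood at 417 ± 15.4, 502 ± 6.75 and 440 ± 11.5. The difference in size of change between these genes was not tested.

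The transcription factors of the list went different ways. MYOCD, the coactivator of SRF in smooth and cardiac muscle (chromosome 17, 12665890 to 12768949, plus strand), was at 65.8, 66.2 and 67.2 CPM in control, 38.2, 36.4 and 42.7 in shRRM2, and 90.8, 89.6 and 92.8 in shRRM2/shp16. Thus shRRM2 was lowest and shRRM2/shp16 highest, with no overlap. MYOCD changed by -0.76 ± 0.05 on the log2 scale in shRRM2 against control (edgeR adjusted p = 1.7e-17), 1.22 ± 0.05 in shRRM2/shp16 against shRRM2 (adjusted p = 1.7e-25) and 0.46 ± 0.04 in shRRM2/shp16 against control (adjusted p = 1.5e-12). SRF was at 114, 112 and 112 CPM in control, 106, 109 and 106 in shRRM2, and 87.8, 90.2 and 89.4 in shRRM2/shp16, a change of -0.08 ± 0.04 that did not pass (adjusted p = 0.059) and then one of -0.26 ± 0.04 (adjusted p = 6.2e-08). The transcripts of MYOCD thus rose where those of ACTA2, TAGLN, CNN1 and DES fell.

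**Figure D3:**
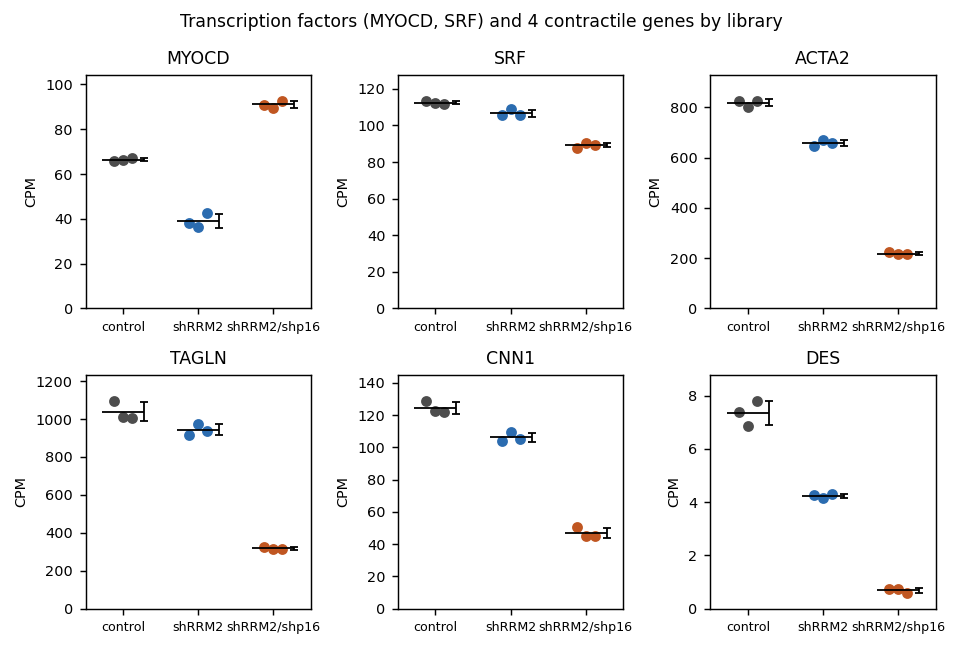
CPM (vertical axis, from 0) of MYOCD, SRF and 4 contractile genes in each library (points), with the group mean (line) and SD (bar, n = 3). MYOCD is lowest in shRRM2 and highest in shRRM2/shp16, while ACTA2, TAGLN, CNN1 and DES are lowest in shRRM2/shp16.

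The 6 genes with a CArG box in the promoters shown above all fell in the second step. So did nearly the whole list, 36 of the 37 tested, against 29.1% of all genes. Set against shRRM2, the 6 changed in shRRM2/shp16 by a log2 value of -0.87 for ACTG2, -0.80 for CNN2, -0.30 for TPM4, -0.26 for SRF, -0.25 for FLNA and -0.19 for MYLK. None of the 6 reached 2-fold in that comparison. For MYLK the change is that of the whole gene, while the box stands before a start inside it. ACTA2, CNN1, CNN3, SMTN, ACTN4, FLNC, PDLIM5, SYNPO2, ZYX and PXN fell by at least 2-fold and held no box before the start kept. TAGLN, MYL9 and DES, which also fell by as much, had no promoter entry to search. Other starts were not searched.

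Per gene length, as RPKM (reads per kilobase, scaled to library size), levels spanned a wide range. FLNA was highest, at 564 ± 18.6 (SD, n = 3) in control, rank 41 among all genes tested, followed by MYH9 at 379 ± 12.3, TPM2 at 356 ± 6.09 and MYL9 at 337 ± 6.36. ACTA2 (261 ± 3.36), TPM4 (268 ± 2.49) and TAGLN (256 ± 11.0) were neighbours whose order was within or near their spread. At the low end stood MYOCD at 7.22 ± 0.10, DES at 2.88 ± 0.18 and SYNPO2 at 1.10 ± 0.08. In shRRM2/shp16, ACTA2 had gone from rank 110 in control to rank 427, FLNC from 124 to 516 and DES from 8720 to 14930, while FLNA went from 41 to 53 and MYOCD from 5377 to 3947.

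**Figure D4:**
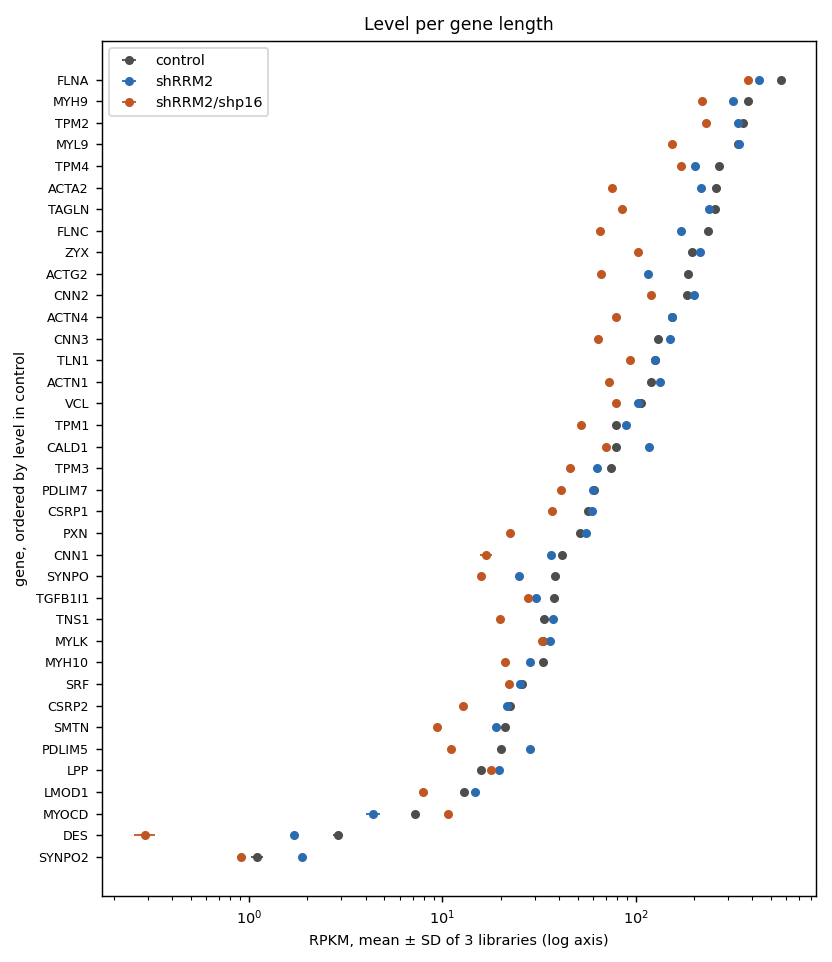
RPKM (horizontal log axis) of each tested gene (vertical axis, ordered by control), as mean ± SD of 3 libraries per group. FLNA is highest at 564 in control and SYNPO2 lowest at 1.10, and the shRRM2/shp16 points lie to the left of the others for most genes but to the right for MYOCD.

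Within families the make-up shifted, as a share of the family's summed RPKM. FLNC held 29.4% ± 0.01 (SD, n = 3) of the filamin pair FLNA and FLNC in control, 28.3% ± 0.11 in shRRM2 and 14.7% ± 0.12 in shRRM2/shp16. Among the smooth muscle actins, ACTA2 held 58.3% ± 0.19, 65.2% ± 0.40 and 53.2% ± 0.46, so per length it was the larger part in every group. By CPM, which takes no account of length, ACTG2 was above ACTA2 in shRRM2/shp16, at a mean of 242.5 beside 218.6. CNN2 rose from 51.7% ± 0.38 of the calponins in control to 59.9% ± 0.67 in shRRM2/shp16, where CNN1 was 8.42% ± 0.54 and CNN3 31.7% ± 0.67. TPM4 held 34.5% ± 0.45 of the tropomyosins in control, 29.2% ± 0.33 in shRRM2 and 34.2% ± 0.49 in shRRM2/shp16, and TPM1 ran the other way, at 10.2% ± 0.25, 13.0% ± 0.45 and 10.4% ± 0.13. The annotation names 11 pseudogenes of CNN2, which can take reads from it. No test was run on the shares.

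**Figure D5:**
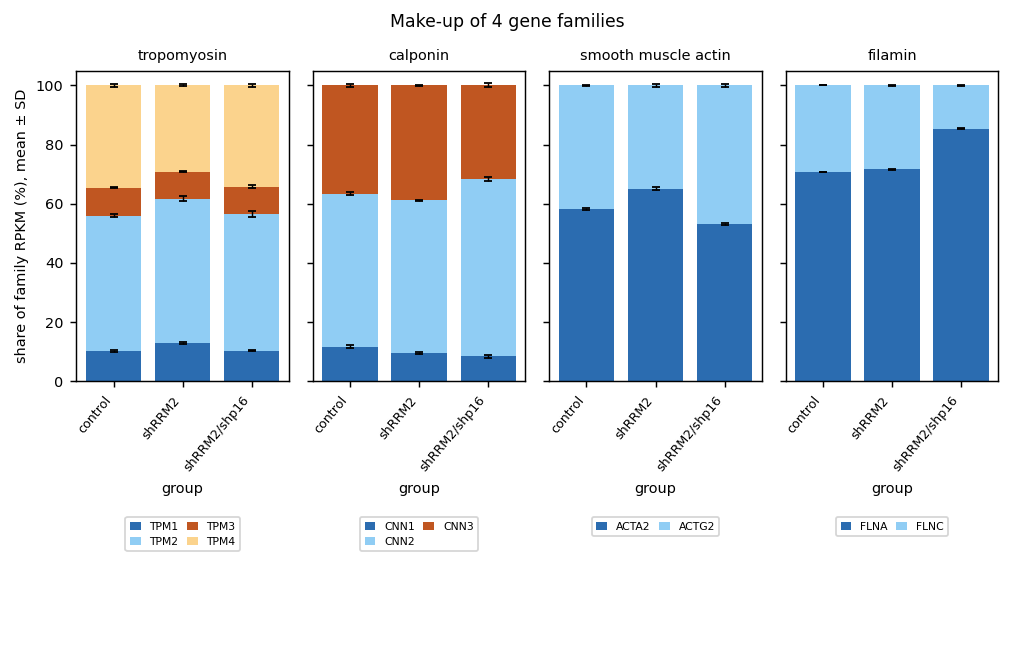
Share of the summed RPKM of 4 gene families (vertical axis, percent) held by each member in each group, as mean with the SD of the member below each bar. FLNC shrinks from 29.4% in control to 14.7% in shRRM2/shp16, and ACTA2 stays the larger of the smooth muscle actins by RPKM.

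Another 60 genes of SRF regulation, of contraction and of adhesion were read beside the list, and 59 were tested. In shRRM2 against control 26 of the 59 rose (29% of all genes) and 20 fell (31.8% of all), the median change being 0.06 on the log2 scale beside 0.002 for all genes. With the p16 hairpin added to shRRM2, 8 rose (31.9% of all) and 47 fell (29.1% of all), the median being -0.41 beside 0.011 for all genes. Of the factors that act with SRF, MRTFA did not pass in shRRM2 (-0.05 ± 0.04, edgeR adjusted p = 0.33) and fell in the second step (-0.33 ± 0.04, adjusted p = 1.8e-08). MRTFB fell and then rose, with 46.0 ± 2.60 CPM (SD, n = 3) in control, 34.1 ± 0.87 in shRRM2 and 45.8 ± 0.54 in shRRM2/shp16. ELK1, a partner of SRF at growth factor genes, rose a little in both steps (0.15 and 0.12). The kinases ROCK1 and ROCK2, which raise light chain phosphorylation, rose in shRRM2 (0.30 and 0.14) and fell in shRRM2/shp16 against shRRM2 (-0.17 and -0.10).

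In that second step the largest falls of the pathway genes were those of HSPB6, a small heat shock protein of smooth muscle, from 175 ± 5.41 to 25.8 ± 1.12 CPM (SD, n = 3), of LIMS2, an ILK partner, from 70.6 ± 3.18 to 21.6 ± 0.31, of the small heat shock protein CRYAB, from 39.6 ± 1.68 to 14.2 ± 0.11, and of PPP1R14A, an inhibitor of myosin phosphatase, from 7.77 ± 0.44 to 3.36 ± 0.50. The largest rises were those of FHL1, RHOB, EVL and RND3, an antagonist of ROCK1, with log2 fold changes from 0.53 to 0.78. In the first step NEXN (0.83 ± 0.04), LIMS1 (0.65 ± 0.04) and PDLIM3 (0.63 ± 0.11) were among the largest rises, and EVL (-0.70 ± 0.06), FHL3 (-0.59 ± 0.06), the formin DIAPH1 (-0.54 ± 0.03) and TLN2 (-0.47 ± 0.04) fell most. Each of these named changes passed at an adjusted p of 5e-06 or less in edgeR.

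Markers of pericytes, mural cells that share much of the contractile programme, were also read. Their 6 genes summed to 508 to 534 CPM in control, 476 to 492 in shRRM2 and 273 to 291 in shRRM2/shp16, with 2 higher and 4 lower in the first step (29% and 31.8% of all genes) and 1 higher and 5 lower in the second (31.9% and 29.1% of all). The summed level of 8 endothelial markers was 65.7 to 70.8, 68.5 to 73.4 and 115 to 124 CPM, nearly all of it TEK, with CDH5 and ERG under 1 CPM in every library. The 8 epithelial markers summed to 24.7 to 26.2, 13.2 to 14.7 and 4.07 to 6.50 CPM, with KRT5 and SFTPC at 0. CLDN4 was at 22.9, 10.7 and 2.37 CPM on average, most of the sum in control and shRRM2. Of the 4 epithelial markers tested, 2 were higher (CDH1 and CLDN7) and 1 lower (CLDN4) in the first step (29% and 31.8% of all genes). In the second step 0 were higher and 1 was lower (31.9% and 29.1% of all). The part of any other cell type in the result was not tested.

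The authors' deposited table of shRRM2/shp16 against shRRM2 lists all 38 genes and marks 30 as significant, 29 lower and 1 higher. The higher one in the authors' deposited table is MYOCD, at a log2 fold change of 1.61. The authors' deposited table does not mark TPM4, MYH9, MYH10, MYH11, MYLK, FLNA, TLN1 or LPP, of which the 7 tested here all passed in edgeR with log2 fold changes from -0.59 to -0.19.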

How the data were processed

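Ribosome-depleted total RNA of 9 IMR90 libraries was sequenced with a stranded kit, per the labels' protocols. The authors deposited raw counts per gene for each library and a table with log2(x + 1) values per library, x being RPKM divided by a constant (read from the values). The deposited table also holds a log2 fold change, a q-value and a p-value comparing both hairpins with shRRM2 alone. The submitters' processing notes name TopHat2 2.0.9, Cufflinks 2.0.2, Cuffdiff and GRCh38; the strand setting of the counting is not given in the sources used here. Of the 9 deposited log2 columns, 8 matched their count file within 1% and that of shRRM2 c did not (6.23% of genes matched), so RPKM was recomputed from the counts with lengths implied by the matching columns.

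The main test was edgeR's (4.0.16, R 4.3.3; quasi-likelihood, filterByExpr, TMM, all 9 libraries, 6 residual degrees of freedom, Benjamini-Hochberg over 16561 genes, two-sided). CPM uses TMM-scaled library sizes, and RPKM unscaled ones. SEs were derived from the F statistic, and 95% intervals use 6 degrees of freedom. The edgeR p-values use more, because edgeR shares information between genes. An interval can therefore include 0 where the test passed, as for PXN in shRRM2 against control (-0.004 to 0.138). The procedure was tested on simulated data with far fewer changed genes than were called here, so that test does not cover a call rate as high as in these data. Full values are given for genes changed at least 2-fold in any comparison and for TPM4, the most counted gene of the group without one; of the pathway list, the 4 highest and 4 lowest changes past the threshold and the SRF cofactors and the kinases ROCK1 and ROCK2 are named, except 1 gene that is not reported here. The genes and lists were chosen with earlier results of these data known. Gene positions are from GENCODE v29 and promoters from RefSeq. Alternatives were DESeq2 1.42.0, RLE factors, limma 3.58.1 on deposited log2 values and on RPKM with a pseudocount of 0.1, other filters, only the libraries compared, a block for the letter, and each library left out; limma on the 0.1 pseudocount with matching columns only was chosen after seeing the data.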

Additional observations from a re-analysis of the deposited data

How the results depend on the processing

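In shRRM2/shp16 against shRRM2 every tested gene of the list kept its direction under all alternatives, and only FLNA lost its call, in limma on the deposited log2 values without a filter (-0.07, adjusted p = 0.111). Differences of the deposited log2(x + 1) values are compressed, because x is RPKM divided by a constant, and are not log2 fold changes. In this comparison the list median was -0.034 on them, -0.73 on RPKM with the 0.1 pseudocount and -0.808 in edgeR. The small changes in shRRM2 against control depended most on the settings. Without a low-count filter 8 genes of the list were higher in place of 13 and 23 lower in place of 18, and limma on the deposited values without a filter called 6124 genes in place of 10079 and 29 of the pathway list in place of 46. MYL9, not past the threshold, was -0.067 without a low-count filter (adjusted p = 0.0339) but turned to 0.005 with at least 10 counts in every library and, in limma, to 0.004 on the deposited values with or without a filter, 0.003 with matching columns, and 0.015 and 0.012 with the 0.1 pseudocount on all and on matching columns. CSRP1, also not past it, turned to -0.017 without a filter and passed as higher in 3 limma settings on the deposited values (adjusted p from 0.0152 to 0.0379). PXN turned to -0.001 in limma on the deposited values, with or without a filter, and to -0.022 with the 0.1 pseudocount. The cause was not tested. In shRRM2/shp16 against control the genes higher were 1 without a low-count filter in place of 2, and 1 to 2 when each library was left out; MYLK and SYNPO2 lost their calls under several limma settings, with adjusted p from 0.0581 to 0.576.

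In limma on the deposited values 62.4% of all calls were higher in shRRM2/shp16 against shRRM2, beside 52.3% in edgeR, and 59.5% beside 48.1% in shRRM2/shp16 against control. With the 0.1 pseudocount the median of all genes in the latter was 0.11 and that of the list -0.70. With the library letter as a replicate block, edgeR called 10101, 10134 and 10388 genes in the 3 comparisons and changed no call of the list. Deviations of same-letter libraries from their own group means correlated at -0.02 to 0.05 between groups, so no pairing by letter was seen. The lowest counts limit DES, SYNPO2 and the untested MYH11.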

Other observations

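The pericyte and fibroblast markers read beside the list also moved gene by gene. CSPG4, the NG2 proteoglycan of pericytes, was at 242 ± 6.66 CPM (SD, n = 3) in control, 199 ± 8.28 in shRRM2 and 73.7 ± 6.65 in shRRM2/shp16. NOTCH3, a receptor that maintains mural cells, went from 79.6 ± 3.29 to 108 ± 4.72 and 52.2 ± 1.02 CPM. RGS5, a regulator of G protein signalling in pericytes, rose in both steps, from 1.73 ± 0.06 to 7.28 ± 0.30 and 12.4 ± 0.30 CPM. Of the fibroblast markers, PDGFRA, the PDGF receptor alpha, fell to 187 ± 2.33 CPM in shRRM2 from 263 ± 4.63 in control and stood at 709 ± 3.94 in shRRM2/shp16. VIM, the intermediate filament protein of mesenchymal cells, fell in both steps, from 5334 ± 181 to 3525 ± 136 and 2136 ± 48.4 CPM. Of all 12 fibroblast markers, 3 were higher (COL1A1, COL1A2 and FAP) and 7 lower in the first step (29% and 31.8% of all genes). In the second, 3 were higher (COL3A1, COL6A1 and PDGFRA) and 5 lower (31.9% and 29.1% of all). Of the striated muscle markers, ACTC1, the cardiac alpha actin, was at 37.4 ± 0.83 CPM in control, 17.2 ± 0.996 in shRRM2 and 14.9 ± 0.16 in shRRM2/shp16. It passed the threshold as lower in each step. Of the 3 striated muscle markers tested, 1 was higher (TNNT2) and 1 lower in the first step (29% and 31.8% of all genes). In the second, 1 was higher (MYH3) and 2 were lower (31.9% and 29.1% of all). TNNT2 and MYH3 were near the floor, reaching at most 1.21 and 1.8 CPM in any library.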
